A study of Oryza sativa with 6 samples.

Results

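The guide strands of the rice miR396 family were described across 6 small RNA libraries of brown planthopper (BPH) feeding. Members were all entries of the known rice miRNAs whose ID starts with osa-miR396 and lacks the 3p ending, which marks the opposite (star) strand of the hairpin. These were osa-miR396a-5p, osa-miR396b-5p, osa-miR396c-5p, osa-miR396d, osa-miR396e-5p, osa-miR396f-5p, osa-miR396g and osa-miR396h, 8 of 464 known entries and of 1898 entries in all. The 8 entries held 5 distinct mature sequences. The libraries came from the BPH-susceptible indica recipient line 9311 (PC) and from the resistant line P15, which carries an introgression of the resistance locus BPH15. Each line was sampled at 0 h without insects (PC-0, P15-0) and after 6 h (PC-6, P15-6) and 48 h (PC-48, P15-48) of BPH feeding. Each condition was 1 library made from 30 pooled plants, so no condition had a replicate. The labels give leaf sheath at a later leaf stage, whereas the methods of the study give stems of younger seedlings, and no tissue marker could be checked in a table of small RNAs.

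MicroRNAs pair with target transcripts and cause their cleavage or repress their translation. miR396 acts on growth-regulating factors (GRFs), transcription factors that promote cell proliferation in young leaves and other growing organs. In rice the family is known for control of grain size through OsGRF4, and a pathway from miR396 through OsGRF8 to a flavanone 3-hydroxylase has been linked to BPH resistance. Bases 2 to 8 from the 5′ end of the miRNA are called the seed here, as a label to group the sequences. How the members pair with targets was not tested.

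The sequences are shown because the members fall into groups by them, and because the read table separates some members better than others. They are written 5′ to 3′ as DNA, as deposited, with the seed in capitals.
osa-miR396a-5p and osa-miR396b-5p: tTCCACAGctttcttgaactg
osa-miR396c-5p: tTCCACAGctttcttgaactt
osa-miR396d, osa-miR396g and osa-miR396h: tCCACAGGctttcttgaacgg
osa-miR396e-5p: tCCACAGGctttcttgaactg
osa-miR396f-5p: tCTCCACAggctttcttgaact

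The a/b sequence and the c sequence shared the seed TCCACAG and differed by 1 base, G21T, counted from 1 at the 5′ end of a/b. The d/g/h sequence and the e sequence shared the seed CCACAGG and differed by T20G, counted from the 5′ end of e. The e sequence was identical to bases 2 to 8 of a/b, followed by an added G and then by bases 9 to 21 of a/b. This form with the added G is known from monocots. The f sequence, with 22 nt against 21 nt for the others, held 20 bases of e starting at its base 3, and its seed by position was CTCCACA. None of the 3 seeds occurred in another known rice miRNA of the table.

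The entries osa-miR396e-5p and osa-miR396f-5p held nearly the same number of reads in every library. Over the 6 libraries osa-miR396e-5p had 563737 reads and osa-miR396f-5p 563758. Their difference (f minus e) was 6, 13 and 2 reads in PC-0, PC-6 and PC-48, and -13, 3 and 10 reads in P15-0, P15-6 and P15-48. It was at most 0.0166% of the reads, where 2 independent counts of that size would differ with an SD of 383 to 484 reads. The 2 entries therefore count as 1 read group, e/f, and the table does not tell which of the 2 ends the reads had. Likewise osa-miR396a-5p and osa-miR396b-5p had 3428 reads each, and osa-miR396g and osa-miR396h had 8327 each against 8325 for osa-miR396d. The 8 members were thus 4 separate measurements (a/b, c, d/g/h and e/f), and each was taken from the larger entry of its group.

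Values are read counts and TPM (read counts divided by a library total and scaled to a common library size). The library totals behind TPM ran from 1078716 reads in P15-48 to 1644065 in P15-6, and a count of 0 would have allowed up to 1.82 to 2.78 TPM. Intervals cover counting error at the 95% level only, because PCR copies and differences between plants are not in them. In bulk tissue, less of a miRNA per cell and fewer cells that carry it cannot be told apart. With library totals P15-6 stood apart, since the median log2 fold change of known entries with at least 20 reads was -0.51 in P15-6/P15-0. A scaling offset and a broad fall of miRNAs cannot be told apart with 1 library. With clean reads as totals the median in P15-48/P15-0 was -0.54. Ratios of P15-6 to PC-6 and to P15-0 are therefore given with other scalings beside them (TMM, median-of-ratios, and clean reads as totals), and ratios between members within a library do not depend on scaling.

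The e/f sequence dominated the family. It had 54517, 62172 and 65016 TPM in PC-0, PC-6 and PC-48, and 77113, 71346 and 94137 TPM in P15-0, P15-6 and P15-48. Its rank among the known sequences was 3 in every library (with e and f counted as 2 sequences) and took 5.45% of the library total in PC-0 and 9.41% in P15-48. All 3 P15 libraries were above all 3 PC libraries.

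The c sequence was second in the family, with 13876, 11065 and 8576 TPM in PC-0, PC-6 and PC-48. In P15-0, P15-6 and P15-48 it had 13894, 15727 and 6788 TPM. The lines overlapped, and the lowest library of each line was the one at 48 h. It ranked between 8 and 12 among the known sequences.

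The d/g/h sequence had 865, 858 and 869 TPM in PC-0, PC-6 and PC-48 and 1193, 1237 and 1146 TPM in P15-0, P15-6 and P15-48. The PC values hardly differed, and every P15 value was above them. The a/b sequence was the lowest of the family, with 461, 444 and 325 TPM in PC-0, PC-6 and PC-48. In P15-0, P15-6 and P15-48 it had 474, 456 and 376 TPM. Its lines overlapped, and the 48 h library was the lowest in both.

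The 4 levels kept the order e/f, c, d/g/h, a/b in all 6 libraries, and each step was larger than the counting intervals. Together the groups took 6.97, 7.45 and 7.48% of the library total in PC-0, PC-6 and PC-48 and 9.27, 8.88 and 10.2% in P15-0, P15-6 and P15-48. The composition of this pool shifted between libraries. The share of e/f in it ran from 78.2% in PC-0 to 91.9% in P15-48, and that of c from 19.9% to 6.63% in the same libraries. From the lowest to the highest library, c varied 2.32-fold, e/f 1.73-fold, a/b 1.46-fold and d/g/h 1.44-fold. Among 65 known sequences with at least 100 reads in every library the median was 1.69-fold, and 12 of them varied more than c.

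**Figure D1:**
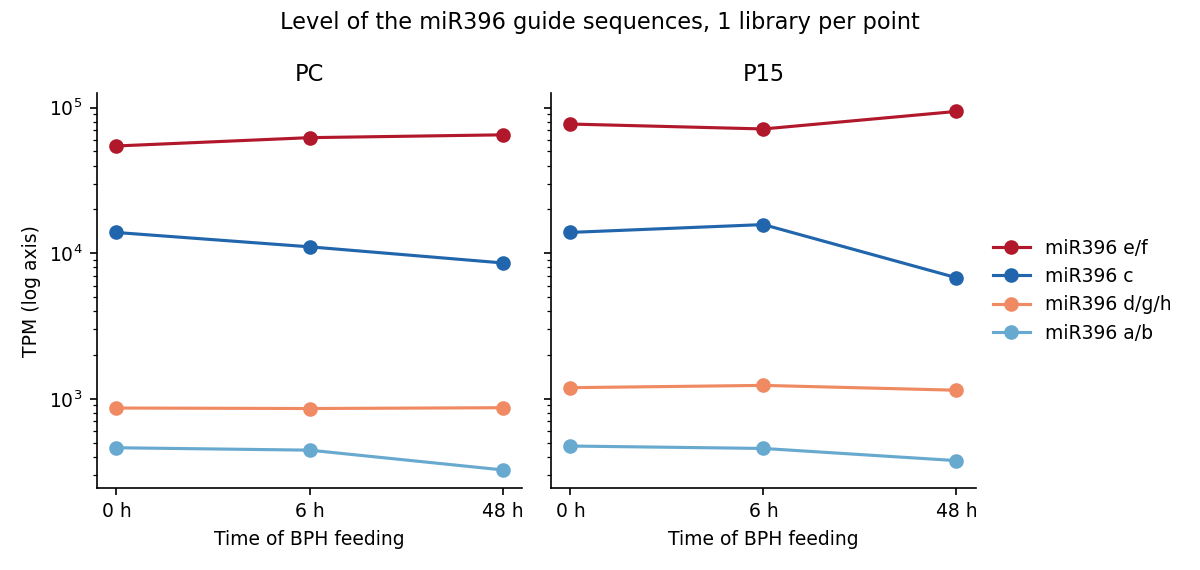
Level of the 4 miR396 read groups in TPM (log axis) against the time of BPH feeding, in PC (left) and P15 (right); each point is 1 library and has no replicate error. The e/f group lies highest in all 6 libraries, and the c group is lowest at 48 h in both lines, at 8576 TPM in PC and 6788 TPM in P15.

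The first comparison concerned the lines. Uninfested P15 held 1.41 times as much e/f as uninfested PC (95% counting interval 1.401 to 1.428) and 1.38 times as much d/g/h (1.28 to 1.488). The c sequence stood at a ratio of 1.00 (0.9814 to 1.022) and a/b at 1.03 (0.92 to 1.148), so neither differed beyond counting error. At 48 h the ratio of P15 to PC was 1.45 (1.435 to 1.461) for e/f, 1.32 (1.215 to 1.431) for d/g/h, 0.791 (0.7683 to 0.8153) for c and 1.16 (1.008 to 1.331) for a/b. At 6 h it was 1.15 (1.137 to 1.158) for e/f, 1.44 (1.338 to 1.553) for d/g/h, 1.42 (1.392 to 1.451) for c and 1.03 (0.9194 to 1.148) for a/b. The other scalings raised all 4 at 6 h. On the log2 scale e/f stood at 0.20 with library totals and 0.45 to 0.59 with the others, d/g/h at 0.53 and 0.78 to 0.92, c at 0.51 and 0.76 to 0.90, and a/b at 0.04 and 0.29 to 0.43. At 48 h a/b stood at 0.21 with library totals, 0.24 with median-of-ratios, 0.07 with TMM and 0.02 with clean reads. The directions of e/f, d/g/h and c at 48 h held with all of these scalings.

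Thus the e/f and d/g/h sequences, which both carry the added G, were higher in P15 at all 3 times, while c was level at 0 h, above PC at 6 h and below PC at 48 h. Every P15 library lay above every PC library for 5 of the 8 members, the entries of the e/f and d/g/h groups, and for 8.54% of the 281 known entries tested across the 6 libraries. For e/f the P15 libraries spanned 71350 to 94140 TPM and the PC libraries 54520 to 65020 TPM. For d/g/h they spanned 1146 to 1237 and 858 to 868.9 TPM. This separation of both groups held under TMM, median-of-ratios and clean-read scaling as well. For c and a/b it held neither under library totals nor under any of these other scalings.

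No member passed the thresholds between the lines at any time. A miRNA was called here if its log2 fold change reached 1 or -1 and the unadjusted P of edgeR's exact test between 2 libraries was under 0.05. That test compares these 2 libraries, not the conditions. Called were 0 of 8 members in P15-0/PC-0, where 5.29% of the known entries were called, 0 of 8 in P15-6/PC-6 (9.32%) and 0 of 8 in P15-48/PC-48 (6.57%). Their median log2 fold changes were 0.46, 0.35 and 0.40, against 0.10, -0.32 and 0.05 over all entries with at least 20 reads. These member medians count entries that share reads separately. In P15-0/PC-0 the groups stood at 0.50 (e/f), 0.46 (d/g/h), 0.04 (a/b) and 0.0018 (c).

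With the libraries of all 3 times as repeats, the line effect was fitted in an additive model of line and time (edgeR quasi-likelihood, TMM scaling, Benjamini-Hochberg adjustment over 281 entries), which left 2 residual degrees of freedom. The log2 difference of P15 from PC was 0.47 (SE 0.18, adjusted p = 0.119) for osa-miR396f-5p and 0.52 (SE 0.22, adjusted p = 0.226) for osa-miR396g. It was 0.12 (SE 0.19, adjusted p = 0.883) for osa-miR396c-5p and 0.16 (SE 0.24, adjusted p = 0.86) for osa-miR396a-5p. Called at an adjusted p under 0.05 were 0 of 8 members, against 5.34% of all entries tested. At an unadjusted P under 0.05 there were 5 of 8 members in edgeR, those of e/f and d/g/h, and 35 of the 281 entries. At an adjusted p under 0.05 DESeq2 called 0 of 8, the same as edgeR. The member median was 0.47 and the median of all entries -0.03.

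The second comparison concerned feeding within a line. At 48 h the c sequence was below its 0 h level in both lines under all 4 scalings. With library totals e/f was above it in both lines, but with clean reads as totals its log2 change in P15-48/P15-0 was -0.0909 instead of 0.29. In PC-48/PC-0 the ratio was 0.618 (0.6036 to 0.6328) for c and 1.19 (1.181 to 1.204) for e/f. In P15-48/P15-0 it was 0.489 (0.4756 to 0.5018) for c and 1.22 (1.21 to 1.231) for e/f. The a/b sequence, which has the seed of c, was also lower at 48 h, at 0.704 (0.6206 to 0.7987) in PC and 0.794 (0.7003 to 0.8993) in P15. With library totals the d/g/h sequence, which has the seed of e, did not differ from 0 h beyond counting error, at 1.00 (0.9248 to 1.092) in PC and 0.961 (0.892 to 1.034) in P15. With the other scalings its log2 change ran from -0.11 to 0.21 in PC and from -0.44 to 0.10 in P15, without a fixed direction.

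At 6 h the sequences of the 2 lines did not move alike. In PC-6/PC-0 the ratio was 0.797 (0.7801 to 0.8152) for c and 1.14 (1.129 to 1.152) for e/f, the same directions as at 48 h. In P15-6/P15-0 it was 1.13 (1.111 to 1.153) for c and 0.925 (0.9176 to 0.9329) for e/f. With library totals the d/g/h and a/b sequences did not differ from 0 h beyond counting error at 6 h in either line, with ratios from 0.962 to 1.04. With the other scalings both were above 0 h in P15-6/P15-0, by a log2 change of 0.35 to 0.55 for d/g/h and 0.24 to 0.45 for a/b, and in PC-6/PC-0 they ran from -0.02 to 0.22 and from -0.07 to 0.18. For c the log2 change at 6 h was 0.51 higher in P15 than in PC, and it remained 0.68 to 0.93 higher with the other scalings, which kept c below 0 h in PC and above 0 h in P15. The P15-6 value of e/f depended on the scaling, because its log2 change from P15-0 was -0.11 with library totals and 0.19 to 0.39 with clean reads, TMM or median-of-ratios.

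**Figure D2:**
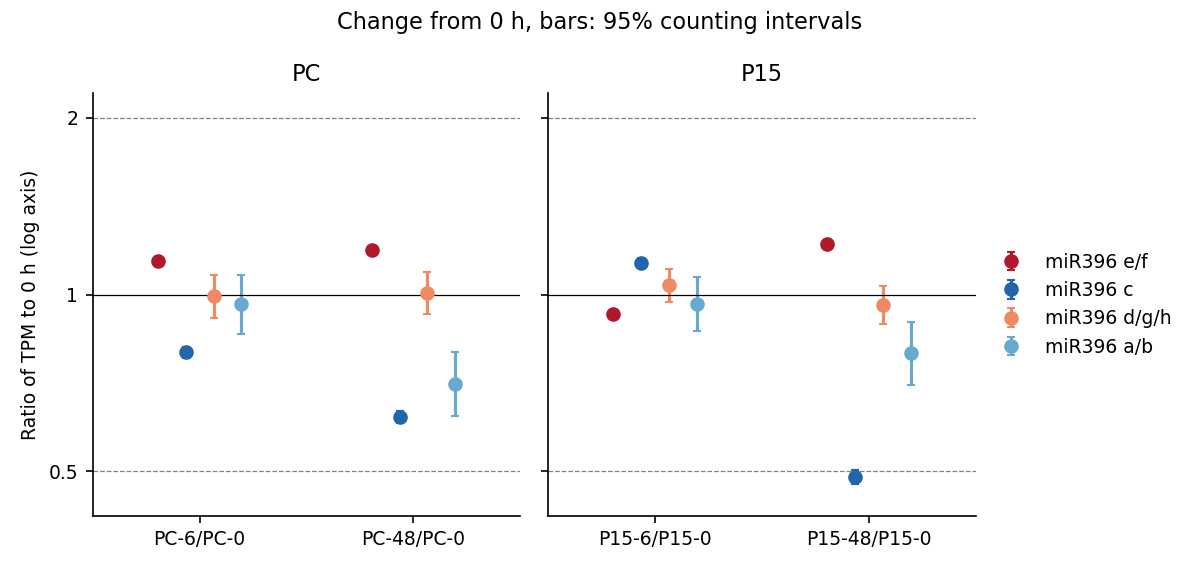
Ratio of TPM to the 0 h library of the same line (log axis) for the 4 miR396 read groups, with library totals as scaling; bars are 95% counting intervals and dashed lines mark 2-fold. The c group is at 0.618 in PC-48/PC-0 and 0.489 in P15-48/P15-0, and lies on opposite sides of 1 in the 2 lines at 6 h.

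Only osa-miR396c-5p was called within a line. It fell in P15-48/P15-0, with a log2 fold change of -1.03, 1 of 8 members where 6.78% of known entries were called. It also fell in P15-48/P15-6, with a log2 fold change of -1.21, again 1 of 8 members (12.1% of known entries), and of 234 entries with at least 20 reads 1 was lower still. The value for P15-48/P15-0 was close to the threshold, and with median-of-ratios scaling it was -0.88 and no member was called. In the other pairs 0 of 8 members were called, against 7.71% of known entries in PC-6/PC-0, 10.8% in PC-48/PC-0, 7.11% in PC-48/PC-6 and 13.9% in P15-6/P15-0. Counts of 0 or 1 in 8 do not set the members apart from these background shares.

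**Figure D3:**
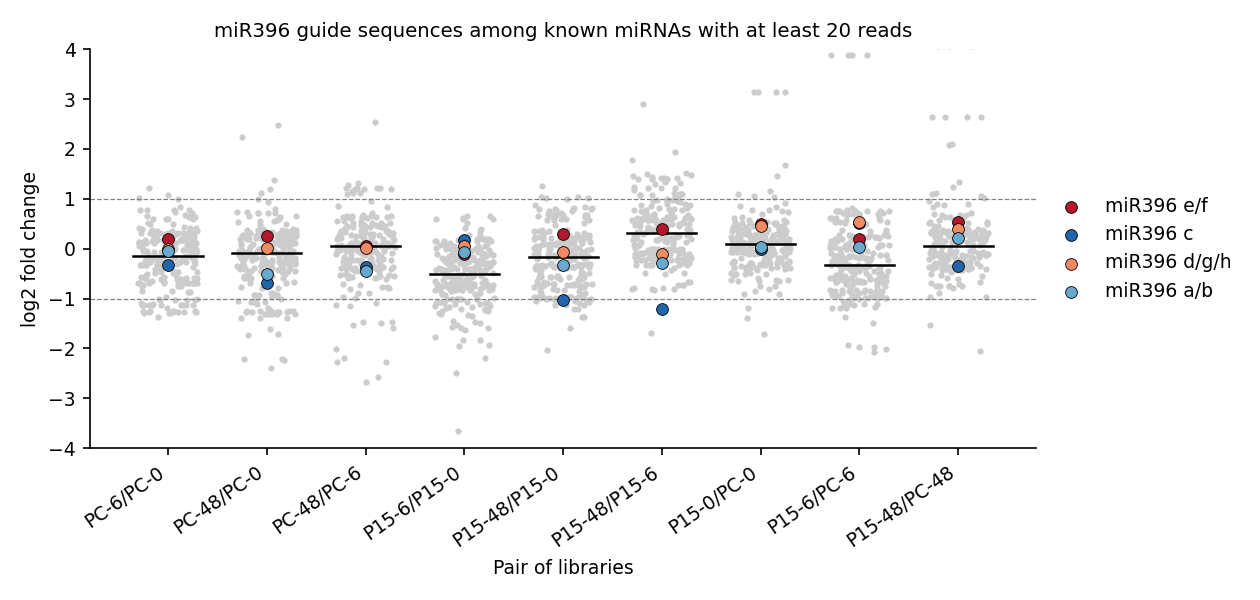
Log2 fold change of every known miRNA entry whose larger count was at least 20 reads (grey) for the 9 pairs of libraries, with the miR396 read groups in colour, the median of all entries as a bar and the thresholds of -1 and 1 dashed; 11 points lie outside the axis. The c group passes -1 in P15-48/P15-0 and P15-48/P15-6, and the median of all entries is -0.51 in P15-6/P15-0.

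Over both lines, the additive fit gave a 48 h effect of -0.69 (SE 0.24, adjusted p = 0.106) for osa-miR396c-5p, 0.43 (SE 0.21, adjusted p = 0.22) for osa-miR396f-5p, -0.26 (SE 0.29, adjusted p = 0.62) for osa-miR396a-5p and 0.13 (SE 0.27, adjusted p = 0.776) for osa-miR396g. Called were 0 of 8 members, where 2.14% of entries were called. At an unadjusted P under 0.05 there were 3 of 8 members, those of c and e/f, and 62 of 281 entries in edgeR. At an adjusted p under 0.05 DESeq2 called 0 of 8, the same as edgeR. Without P15-48 the effect for osa-miR396c-5p was -0.36, without PC-48 it was -1.10, and without PC-6 or P15-6 it was -0.70 and passed the threshold. With either 6 h library left out, the other 6 h library is taken up by its own time term. Both fits thus rest on the same 0 h and 48 h libraries, with fewer residual degrees of freedom, and are 1 result. For the 6 h effect 0 of 8 members were called, with 0.356% of entries called. There 0 of 8 members and 30 of 281 entries had an unadjusted P under 0.05 in edgeR, and DESeq2 called 0 of 8 at an adjusted p under 0.05.

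The e/f sequence was then set against c and a/b within each library, which removes the scaling. In PC the ratio of e/f to c was 3.93 (95% interval 3.87 to 3.99) at 0 h, 5.62 (5.52 to 5.72) at 6 h and 7.58 (7.43 to 7.73) at 48 h. In P15 it was 5.55 (5.47 to 5.63) at 0 h, 4.54 (4.48 to 4.6) at 6 h and 13.9 (13.5 to 14.2) at 48 h. The balance of the 2 most abundant sequences thus moved toward e/f by 48 h in both lines, by 1.93-fold (1.88 to 1.98) in PC and 2.50-fold (2.43 to 2.57) in P15. It differed in direction at 6 h, with a fold of 1.43 (1.4 to 1.47) in PC and 0.817 (0.801 to 0.834) in P15.

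The ratio of e/f to a/b was 118, 140 and 200 in PC-0, PC-6 and PC-48. It was 163, 156 and 250 in P15-0, P15-6 and P15-48. From 0 h to 48 h it was 1.69-fold (1.49 to 1.92) higher in PC and 1.54-fold (1.36 to 1.74) higher in P15. At 6 h it was 1.18-fold (1.06 to 1.33) of the 0 h value in PC, and 0.961-fold (0.866 to 1.07) in P15, within counting error. The ratio to d/g/h, the closest relative by sequence, ran over the narrowest range, from 57.7 in P15-6 to 82.2 in P15-48. The ratio of c to a/b, which differ only in the last base, was 30.1, 24.9 and 26.4 in PC-0, PC-6 and PC-48. In P15-0, P15-6 and P15-48 it was 29.3, 34.5 and 18.0. The counting intervals of P15-48 (16.3 to 19.9) did not reach those of the other 5 libraries. The ratio also shifted beyond counting error in some pairs without P15-48, such as P15-6/PC-6, at 1.38-fold (1.24 to 1.55). In others, such as P15-0/PC-0 at 0.974-fold (0.872 to 1.09), it did not. Thus c and a/b kept no fixed proportion over the libraries.

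**Figure D4:**
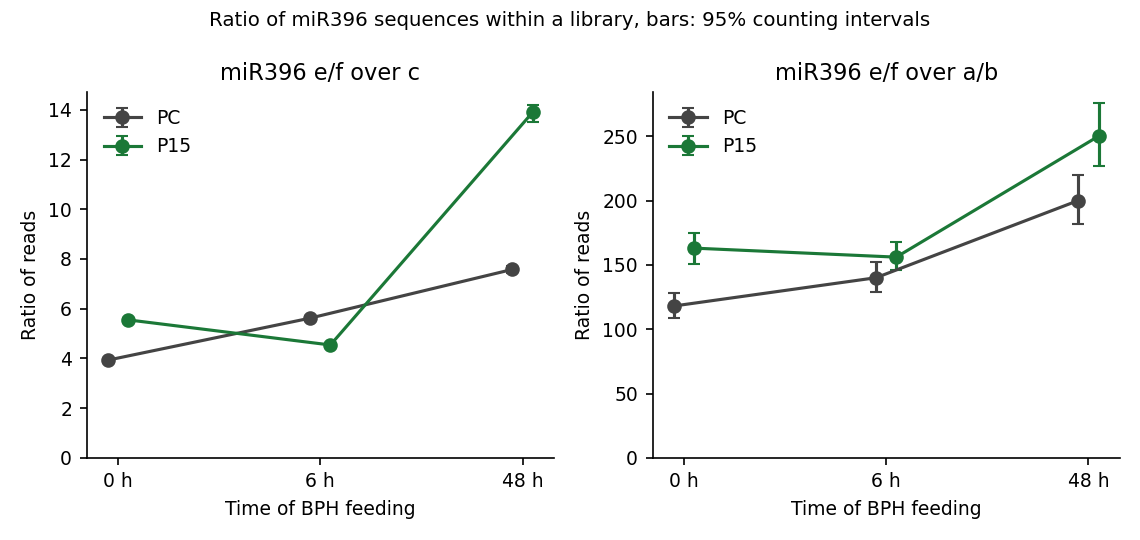
Reads of miR396 e/f divided by reads of c (left) and of a/b (right) in the same library, against the time of BPH feeding; bars are 95% counting intervals and each point is 1 library. The ratio to c reaches 7.58 in PC-48 and 13.9 in P15-48 and the ratio to a/b 200 and 250, while the lines cross at 6 h for c only.

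The ratios were also compared between the lines over the 3 times. The geometric mean of e/f over a/b was 185 in P15 and 149 in PC, a log2 difference of 0.31 with SDs of 0.38 and 0.39 (n = 3 libraries per line, exact two-sided permutation p = 0.4), and P15 was higher at 3 of 3 times. For e/f over c it was 7.04 and 5.51, a log2 difference of 0.35 with SDs of 0.86 and 0.47 (n = 3 per line, exact two-sided permutation p = 0.7), with P15 higher at 2 of 3 times. With 3 against 3 libraries the smallest possible p was 0.1, and Benjamini-Hochberg adjustment over the 2 permutation tests gave 0.7 for both. When the lines were paired by time, a comparison chosen after seeing the data, the log2 differences of e/f over a/b (P15 minus PC) were 0.46, 0.16 and 0.32 at 0, 6 and 48 h. All 3 had 1 sign, and their mean of 0.31 exceeded their SD of 0.15 (n = 3, exact two-sided sign-flip permutation p = 0.25, the smallest that 3 pairs allow). For e/f over c they were 0.50, -0.31 and 0.87, with a mean of 0.35 and an SD of 0.60 (n = 3, exact two-sided sign-flip permutation p = 0.5). Without P15-48 the unpaired difference of e/f over a/b was 0.098, without PC-0 it was 0.15 and without PC-48 it was 0.53. That of e/f over c was -0.14 without P15-48, 0.11 without PC-0, 0.58 without PC-48 and 0.67 without P15-6.

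The star strands of the family, which are usually degraded, were far less abundant. At 0, 6 and 48 h osa-miR396f-3p counted 315, 281 and 300 reads (PC) against 362, 357 and 297 (P15), and none of its pairs was called. For osa-miR396c-3p the reads were 235, 185 and 86 (PC) against 286, 194 and 117 (P15). Like its guide, the c star strand was lower at 48 h in both lines, at 0.383 (0.2958 to 0.4926) of its 0 h TPM in PC, which was called, and 0.541 (0.4324 to 0.6729) in P15. In P15-6/P15-0, however, the star strand stood at 0.588 (0.4878 to 0.7085) while its guide stood at 1.13. The guide therefore had 69.3 times the reads of the star in P15-0, 133 times in P15-6 and 62.6 times in P15-48, against 79.4, 75.3 and 128 times in PC at the same times.

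osa-miR396e-3p was rare, at 12, 8 and 5 reads (PC) against 41, 19 and 19 (P15). It was the only one of 5 star strands called for the line effect, with a log2 difference of 1.60 (SE 0.39, edgeR adjusted p = 0.00107), and 3 of the 5 had passed the filter on low counts. The call held in 5 of 12 alternative fits, with adjusted p from 0.000107 to 0.401 (0.167 in DESeq2), and was lost without PC-0, PC-48, P15-0 or P15-48. When a library is left out, the other library of that time is taken up by its own time term. The log2 difference was 1.44 without PC-0 or P15-0, 1.43 without PC-48 or P15-48 and 1.73 without PC-6 or P15-6. Leaving out either library of a time is therefore a single result, and these fits are not all separate. The star strands osa-miR396a-3p and osa-miR396b-3p had 3 to 6 reads in each library, too few to compare.

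miR319 acts on TCP transcription factors, which in Arabidopsis raise miR396. Of the miR319 entries, the naming rule used for the miR396 guides kept osa-miR319b only. The rule was set for miR396, and whether any miR319 entries it left out are guide strands was not tested. The values below therefore describe osa-miR319b alone and not the whole miR319 family. osa-miR319b counted 834, 961 and 886 reads (PC) against 1124, 1356 and 843 (P15) at 0, 6 and 48 h. Its line effect was 0.27 on the log2 scale (SE 0.23, edgeR adjusted p = 0.727), and it was called in 0 of 9 pairs. Outside the known rice entries, the table lists MIR396-x, shown because its sequence shares 20 bases with e and f and ends differently.
MIR396-x: tCCACAGGctttcttgaacttc
It counted 428, 342 and 444 reads (PC) against 528, 543 and 391 (P15), far fewer than e/f, and its lines overlapped in TPM.

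Among 139 known sequences outside the family with at least 100 reads over the 6 libraries, those whose log2 TPM followed each read group most closely were listed by Pearson's r over the 6 libraries. The points share libraries, totals and the shift of P15-6, so the values are descriptions only. The c sequence was most like osa-miR167i-3p (r = 0.982), osa-miR1863b.2 (0.914) and osa-miR166l-3p (0.853). The d/g/h sequence was most like osa-miR1862a (0.988), osa-miR1861l (0.968) and osa-miR159b (0.861), and e/f was most like osa-miR529b (0.919), osa-miR1871 (0.89) and osa-miR390-3p (0.824). At 0, 6 and 48 h osa-miR1862a counted 26, 11 and 26 reads (PC) against 533, 932 and 369 (P15). For osa-miR1861l the reads were 22, 10 and 24 against 206, 195 and 126. Both thus had few reads in PC and a far larger step between the lines than d/g/h. osa-miR159b counted 10621, 7949 and 10046 reads (PC) against 12759, 17136 and 9752 (P15). The a/b sequence was most like osa-miR171d-5p (0.954), osa-miR171i-3p (0.91) and osa-miR812t (0.908). No sequence was among the closest 3 of more than 1 read group.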

How the data were processed

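Small RNA reads of 6 libraries were analysed. The authors removed other RNA classes, assigned the remaining reads to miRBase release 21, and deposited read counts and TPM per entry; the sources used here name neither the aligner nor the mismatches allowed. Per the values, the deposited TPM is the count divided by a library total, which was computed back (deviation at most 0.000123 percent for entries with at least 50 reads). 

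Pairs of libraries were compared with edgeR 4.0.16 (exactTest, dispersion 0, prior count 0.125; R 4.3.3). Ratios of TPM carry exact 95% counting intervals, and ratios between members intervals from the log odds ratio. The additive fit used filterByExpr, and DESeq2 1.42.0 was the second tool. Each SE given with an edgeR effect was worked back from the test, as the absolute log2 effect divided by the square root of its quasi-likelihood F statistic. The e and f entries differ in sequence but share reads, and were taken once, by the larger entry in each library. Steps were tested on simulated data. Python 3.11.15 served for tables and permutations (scipy 1.17.1, pandas 2.3.3).

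The members, lists and the rule for other named miRNAs (star strands, miR319, entries sharing at least 16 bases, and the 3 most alike sequences) were chosen with earlier results of these data known. Alternatives covered scaling (TMM, median-of-ratios, clean reads), dispersion, filters, shared sequences and each library left out.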

Additional observations from a re-analysis of the deposited data

Results flagged for a closer look

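At 6 h the c sequence differed from 0 h in opposite directions in the 2 lines, each beyond counting error. Its log2 change was 0.18 in P15 and -0.33 in PC, a difference (P15 minus PC) of 0.51. The directions held with TMM, clean-read and median-of-ratios scaling, where the difference was 0.68, 0.82 and 0.93. The e/f group also moved in opposite directions at 6 h, with a log2 change of -0.11 in P15 and 0.19 in PC, a difference of -0.30. That opposition was seen with library totals only, because with the other scalings e/f was above 0 h in both lines and the difference was -0.13, 0.012 and 0.12. Each condition was 1 library, so neither difference was tested against the spread of replicates.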

How the results depend on the processing

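Of the values compared with their alternatives, 85 of 88 counts of called members, 195 of 216 log2 fold changes, 127 of 136 log2 effects and 19 of 20 ratios kept their direction and their side of the threshold. Dispersion, the read filter and taking shared sequences once left every log2 fold change between 2 libraries as it was by construction. All 20 that turned direction and the 1 that was weaker came with another scaling. The ratios with e alone, f alone or all entries summed could hardly differ, because those entries share reads, and pairing by time keeps the mean difference. These shares therefore overstate how stable the values were. With median-of-ratios scaling 0 members were called in P15-48/P15-0, with c at -0.88. For the 48 h effect c passed the threshold only without PC-6 or P15-6, which is 1 result, because both fits rest on the same 0 h and 48 h libraries.

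Some log2 fold changes turned direction with the scaling, among them e/f in P15-48/P15-0, which was 0.29 with library totals. With TMM they were, in PC-6/PC-0, 0.18 for a/b and 0.22 for d/g/h, in PC-48/PC-6, -0.0129 for d/g/h, in P15-6/P15-0, 0.35 for a/b and 0.29 for e/f, and in P15-48/P15-6, -0.0249 for e/f. With median-of-ratios they were, in PC-6/PC-0, 0.0252 for a/b and 0.069 for d/g/h, in P15-6/P15-0, 0.45 for a/b and 0.39 for e/f, in P15-48/P15-0, 0.10 for d/g/h, and in P15-0/PC-0, -0.0112 for a/b and -0.0486 for c. With clean reads they were -0.11 for d/g/h in PC-48/PC-0, -0.0823 for d/g/h and -0.0359 for e/f in PC-48/PC-6, 0.24 for a/b and 0.19 for e/f in P15-6/P15-0, -0.0909 for e/f in P15-48/P15-0 and -0.28 for e/f in P15-48/P15-6. With library totals in the additive fit, the 6 h effect was -0.0552 for a/b and -0.0566 for c, and the 48 h effect was -0.0252 for d/g/h.

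When 1 library was left out, the line effect of c ran from -0.29 to 0.36, its 6 h effect from -0.24 to 0.78, and the 48 h effect of d/g/h from -0.0039 to 0.24. The log2 difference between the lines of e/f over a/b ran from 0.098 without P15-48 to 0.53 without PC-48. That of e/f over c ran from -0.14 without P15-48 to 0.67 without P15-6. Why these values turned was not tested. The a/b sequence, with 406 to 750 reads, carried wider counting intervals than e/f and c.

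Pairing the lines by time, which was added after seeing the data, left the log2 differences at 0.31 for e/f over a/b and 0.35 for e/f over c. The labels give no replicate numbers to pair libraries by.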
